A study of Homo sapiens with 14 samples.

Results

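The genes described here are 36 targets and partners of the transcription factor ATF4 that serve amino acid supply and tRNA charging, among the 62703 genes counted in the series. They were chosen by symbol, as the rows named for ATF4, its partner factors, enzymes of serine, glycine, proline and asparagine synthesis, amino acid transporters, cytosolic aminoacyl-tRNA synthetases and a few further targets. The data were 14 libraries of prostate cancer cell lines kept for 3 days with 1.5 µM SEL120-34A, which inhibits CDK8 and CDK19, kinases of the Mediator complex, or with its solvent dimethylsulfoxide (DMSO). LNCaP had 3 DMSO and 3 SEL120-34A libraries, 22Rv1 had 3 and 3, and PC3 had 1 and 1. Per the study's methods all lines grew in RPMI-1640 with serum, and plates for LNCaP alone were coated with poly-D-lysine. Each line is 1 established line, so that differences between lines are differences between these cell lines. The study's methods give biological replicates as the general rule for its experiments, and the labels add nothing on how the replicates were made.

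ATF4 is the main effector of the integrated stress response. When amino acids run short or proteins fold poorly, kinases phosphorylate the initiation factor eIF2, most translation slows, and the ATF4 messenger is translated better, so that ATF4 activity is set largely at the level of protein and its mRNA is an incomplete measure of it. ATF4 binds DNA as a dimer with C/EBP family members at a composite element and raises genes that make, import and charge amino acids. Aminoacyl-tRNA synthetases attach each amino acid to its tRNA, and most of the cytosolic ones used here are known ATF4 targets.

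The composite C/EBP-ATF element reads TGATGNAA, and it was searched on both strands in the RefSeq promoter windows of the GRCh38.p14 build, which run from 250 bases before to 50 after each annotated start. Of the 36 genes, 29 had a window, and 11 of these held the element (37.9%), against 1217 of the 27305 genes with a window (4.46%). They were ASNS, CHAC1, CEBPG, SLC3A2, TARS1, GARS1, IARS1, CARS1, MARS1, AARS1 and NARS1, among them 7 synthetases. The genes are known ATF4 targets, so the share is a property of how they were chosen. The cAMP response element TGACGTCA, which cannot match at the same position, was found for PPP1R15A alone (614 of 27305 genes, 2.25%). A match of letters is not evidence of binding. The windows shown are those of genes on which results turn, with ASNS as the classical carrier of the element. They are written 5′ to 3′ on the strand of the gene, with the element in capitals, read there on either strand.
TARS1 (chr5:33440956-33440985, plus strand): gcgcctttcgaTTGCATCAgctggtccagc
GARS1 (chr7:30594834-30594863, plus strand): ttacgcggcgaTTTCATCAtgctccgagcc
IARS1 (chr9:92293692-92293721, minus strand): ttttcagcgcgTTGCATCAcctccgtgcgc
NARS1 (chr18:57621804-57621833, minus strand): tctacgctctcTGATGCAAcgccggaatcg
MARS1 (chr12:57488053-57488082, plus strand): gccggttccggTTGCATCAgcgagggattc
SLC3A2 (chr11:62881725-62881748, plus strand): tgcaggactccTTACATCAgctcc
ASNS (chr7:97872458-97872487, minus strand): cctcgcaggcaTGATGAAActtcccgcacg
PPP1R15A (chr19:48872352-48872381, plus strand): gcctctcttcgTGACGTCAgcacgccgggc

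Total counts ran from 246063 to 909176 per library. All 3 treated 22Rv1 libraries (246063 to 368778) were shallower than their controls (476455 to 777207), whereas the LNCaP arms overlapped. Mitochondrially encoded genes took 13.9% to 17.3% of counts in LNCaP with DMSO and 16.5% to 23.3% with SEL120-34A, and 7.6% to 9.82% and 9.52% to 13.1% in 22Rv1. As a check of the labelled cells, 4 epithelial markers summed to 949 to 1987 CPM (counts scaled to the library size) over all libraries, and 4 leukocyte and 3 endothelial markers each summed to 4 counts or fewer in every library. The epithelial sum was 1408 to 1555 CPM in LNCaP with DMSO and 1159 to 1201 with SEL120-34A, below its controls, and 949 to 1186 and 1090 to 1219 CPM in 22Rv1, with overlap. The 5 fibroblast markers summed to 12.7 to 18.3 CPM in LNCaP with DMSO (7 to 13 counts) and 23.4 to 35.9 CPM with SEL120-34A (6 to 17 counts), above its controls, with 3 of the 5 at 0 in both arms. The part of these marker shifts in the results was not tested.

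Levels are given as CPM after scaling with TMM factors, in the order of the replicate numbers. The detection floor was set at 3 counts, which equal 3.27 CPM in the deepest library and 12.9 in the shallowest. Of the 36 genes, 31 passed the filter on low counts and were tested in LNCaP and 22Rv1 in a fit of 7086 genes. NUPR1, ASNS, SLC7A11, CHAC1 and VLDLR did not pass. Differences are log2 fold changes of edgeR's quasi-likelihood fit with their standard errors, and p-values were adjusted by the Benjamini-Hochberg method across the whole fit, with a threshold of 0.05. In bulk libraries, fewer cells that express a gene and less RNA of it per cell cannot be told apart.

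The first comparison set the DMSO libraries of LNCaP and 22Rv1 side by side. It describes the pathway without inhibitor, and it shares its control samples with the treatment comparisons below. LNCaP had higher mRNA of the serine synthesis enzyme PHGDH, of the proline enzyme PYCR1, of SLC3A2 and of threonyl-tRNA synthetase (TARS1). 22Rv1 had higher mRNA of the neutral amino acid transporters SLC7A5 and SLC38A2, of the stress regulators DDIT3 and PPP1R15A, of ALDH18A1 and MTHFD2, and of 5 synthetases. Of the 31 tested genes, 17 passed the threshold (54.8%), 6 higher and 11 lower in LNCaP, where 49% of all tested genes passed, 24% higher and 25% lower, so the count is near that of the genome at large. The CPM ranges of the lines did not overlap for 8 genes higher in LNCaP and 11 lower, against 27.5% and 28.9% of all tested genes. Among the 8 were STC2 and SESN2, which did not pass the filter with 22Rv1 fitted alone, so the filter favoured this direction for them. The median difference of the 31 genes was -0.12 on the log2 scale, against -0.03 over all tested genes. With library totals in place of TMM factors the split was 4 higher and 12 lower for the 31 genes and 1211 and 2362 for all genes, against 1701 and 1772 with TMM.

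**Figure D1:**
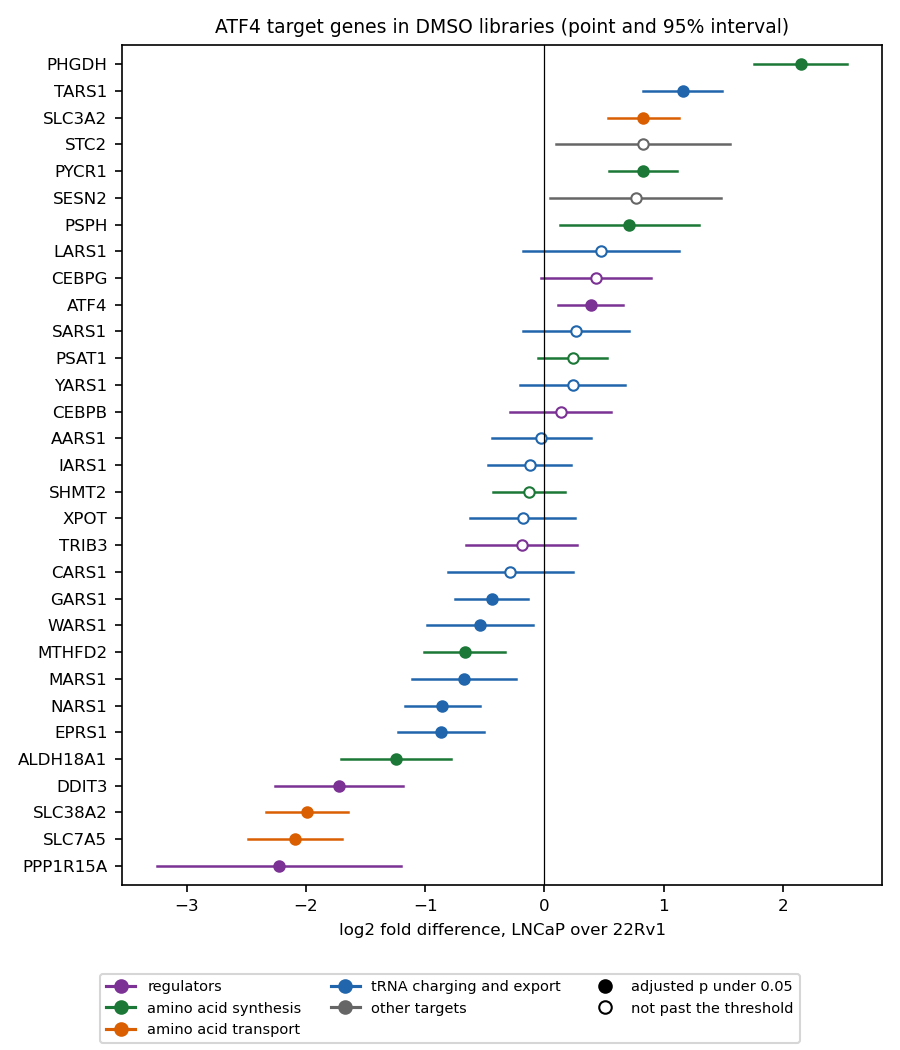
Log2 fold difference of 31 tested ATF4 target genes between the DMSO libraries of LNCaP and 22Rv1 (x axis, positive is higher in LNCaP; 3 libraries per line), with 95% intervals as lines and colours for the role of the gene. Filled points passed an adjusted p of 0.05; PHGDH stands highest at 2.15 and PPP1R15A lowest at -2.23, with genes of each of the larger roles on both sides.

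Among the regulators, ATF4 itself was counted at 328, 390.1 and 347 CPM in the LNCaP DMSO libraries and 291, 275 and 249 CPM in those of 22Rv1. All LNCaP libraries lay above all 22Rv1 libraries, and the difference was small, 1.31-fold (log2 0.39 ± 0.14 SE, adjusted p = 0.0166). It did not pass with library totals (log2 0.17, adjusted p = 0.288), and leaving out LNCaP DMSO replicate 2 or 22Rv1 DMSO replicate 3 also ended the call (adjusted p = 0.0751 and 0.106). ATF4 has 4 named pseudogenes, and how reads shared with them were counted is not given in the sources used here. DDIT3, or CHOP, the pro-death factor downstream of ATF4, went the other way, at 16.9, 31.4 and 32.2 CPM in LNCaP and 70.7, 101 and 88.3 CPM in 22Rv1. No LNCaP library reached the lowest 22Rv1 library, and the level was 3.30-fold lower in LNCaP (log2 -1.72 ± 0.27 SE, adjusted p = 8.92e-07).

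PPP1R15A, or GADD34, which returns eIF2 to its unphosphorylated form, was near the floor in LNCaP, with 2, 2 and 9 counts (2.82, 5.24 and 12.6 CPM), and had 27, 10 and 28 counts (53.0, 18.7 and 33.4 CPM) in 22Rv1. The groups did not overlap, and the level was 4.69-fold lower in LNCaP with a wide interval (log2 -2.23, 95% interval -3.25 to -1.21, adjusted p = 0.000351). PPP1R15A passed the filter on low counts through its 22Rv1 libraries alone, the line where it was high, so the filter favoured this direction. It was not tested with at least 10 counts in every library or with thinned libraries. ATF4 was thus higher in the line in which DDIT3 was lower. CEBPB, CEBPG and TRIB3, partner factors and a feedback inhibitor of ATF4, ran from 40.9 to 95.1 CPM over the 6 DMSO libraries, and their differences of -0.19 to 0.43 did not pass.

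Genes of serine and glycine synthesis differed unequally. PHGDH, which takes 3-phosphoglycerate into serine synthesis, was counted at 180.3, 275 and 277 CPM in LNCaP and 56.9, 56.2 and 51.3 CPM in 22Rv1. Even the lowest LNCaP library was more than 3 times the highest 22Rv1 library, a 4.44-fold difference (log2 2.15 ± 0.19 SE, adjusted p = 2.57e-12). PSPH, the last step of the same route, had 29.6, 57.6 and 68.5 CPM in LNCaP and 33.4, 24.3 and 34.6 CPM in 22Rv1. Its ranges overlapped, and the call (log2 0.71, adjusted p = 0.0375) was lost in 10 of 21 alternatives, among them those without LNCaP DMSO replicate 2 or 3 and those without any 1 of the 22Rv1 DMSO libraries (adjusted p from 0.0527 to 0.385). PSAT1, the step between them, did not pass, at 265 ± 51.3 CPM in LNCaP and 227 ± 16.6 CPM in 22Rv1 (SD, n = 3; log2 0.24, 95% interval -0.05 to 0.53). SHMT2, which turns serine into glycine in mitochondria, had a difference of -0.13 (95% interval -0.43 to 0.17).

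MTHFD2, the mitochondrial folate enzyme next to SHMT2, was lower in LNCaP, at 170.4, 225 and 289 CPM against 428, 290.1 and 377 CPM in 22Rv1. The highest LNCaP library lay just under the lowest 22Rv1 library, and the difference passed (log2 -0.67 ± 0.17 SE, adjusted p = 0.00102). The MTHFD2 gene has 7 named pseudogenes, and its last 500 transcript bases lie under SLC4A5 on the opposite strand, to which 1 count in all was assigned. The proline enzymes split between the lines. ALDH18A1, which makes the first intermediate from glutamate, was counted at 38.0, 47.1 and 32.2 CPM in LNCaP and 78.5, 110.4 and 83.5 CPM in 22Rv1 (log2 -1.24, adjusted p = 1.93e-05). PYCR1, which makes proline in the last step, was at 301, 361 and 329 CPM in LNCaP and 210.1, 182 and 169 CPM in 22Rv1 (log2 0.83, adjusted p = 6.37e-06). Neither pair of ranges overlapped, with the first enzyme higher in 22Rv1 and the last higher in LNCaP. An antisense RNA covers 77.4% of the last 500 bases of PYCR1 and had 7 counts in all.

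Transport genes stood far apart between the lines. SLC7A5, or LAT1, exchanges large neutral amino acids such as leucine, and SLC38A2, or SNAT2, takes up small neutral ones such as alanine and glutamine. SLC7A5 was counted at 43.7, 31.4 and 39.1 CPM in LNCaP and 163, 193 and 151 CPM in 22Rv1 (4.27-fold lower in LNCaP, adjusted p = 6.16e-12). SLC38A2 was at 62.0, 86.4 and 95.1 CPM in LNCaP and 285, 378 and 303 CPM in 22Rv1 (3.97-fold lower, adjusted p = 5.69e-13). In both, the lowest 22Rv1 library was well above the highest LNCaP library. SLC3A2, or CD98, the heavy chain that carries SLC7A5 and SLC7A11 to the cell surface, went against its light chain SLC7A5, with 229.6, 251 and 291 CPM in LNCaP and 161, 135 and 142 CPM in 22Rv1 (1.78-fold higher in LNCaP, adjusted p = 1.11e-05). The cystine carrier SLC7A11 was below the filter, at 22.5, 15.7 and 35.0 CPM in LNCaP and 7.85, 9.36 and 9.54 CPM in 22Rv1. Its ranges did not overlap, and without the filter it was higher in LNCaP (log2 1.49 ± 0.42 SE, adjusted p = 0.00365).

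All 13 genes of tRNA charging and export passed the filter. Of these, 1 was higher and 5 were lower in LNCaP. TARS1, threonyl-tRNA synthetase, was counted at 217, 217 and 275 CPM in LNCaP and 100.1, 99.2 and 118 CPM in 22Rv1, 2.23-fold higher in LNCaP (adjusted p = 1.59e-07). Every LNCaP library lay above every 22Rv1 library. NARS1, for asparagine, had 142, 123 and 164 CPM in LNCaP and 257, 241 and 287 CPM in 22Rv1 (log2 -0.86, adjusted p = 1.77e-05). EPRS1, for glutamate and proline, had 93.0, 96.9 and 88.1 CPM in LNCaP and 145, 195 and 166 CPM in 22Rv1 (log2 -0.87, adjusted p = 0.00011). Both were higher in every 22Rv1 library than in any of LNCaP.

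The other calls among the synthetases were smaller. MARS1, for methionine, was at 43.7, 47.1 and 53.1 CPM in LNCaP and 72.6, 84.2 and 75.1 CPM in 22Rv1 (log2 -0.68, adjusted p = 0.00935). GARS1, for glycine, was at 131, 165 and 185 CPM in LNCaP and 202, 212 and 236 CPM in 22Rv1 (log2 -0.44, adjusted p = 0.0147). WARS1, for tryptophan, was at 57.8, 39.3 and 61.5 CPM in LNCaP and 70.7, 89.8 and 78.7 CPM in 22Rv1 (log2 -0.54, adjusted p = 0.0396). None of these 3 pairs of ranges overlapped, but the calls were lost in 2, 5 and 8 of 22 alternatives. Leaving out LNCaP DMSO replicate 1 alone ended all 3 (adjusted p = 0.0504, 0.137 and 0.0616). WARS1 also lost its call without LNCaP DMSO replicate 2 or 22Rv1 DMSO replicate 2 or 3 (adjusted p = 0.173, 0.110 and 0.0725), and GARS1 without 22Rv1 DMSO replicate 3 (0.0776). MARS1 and DDIT3 lie tail to tail on chromosome 12, and 63 of the last 500 bases of DDIT3 are also exon of MARS1 on the other strand; whether counting used the strand is not given in the sources used here. The remaining 7 genes of the group did not pass, with differences from -0.29 to 0.47.

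**Figure D2:**
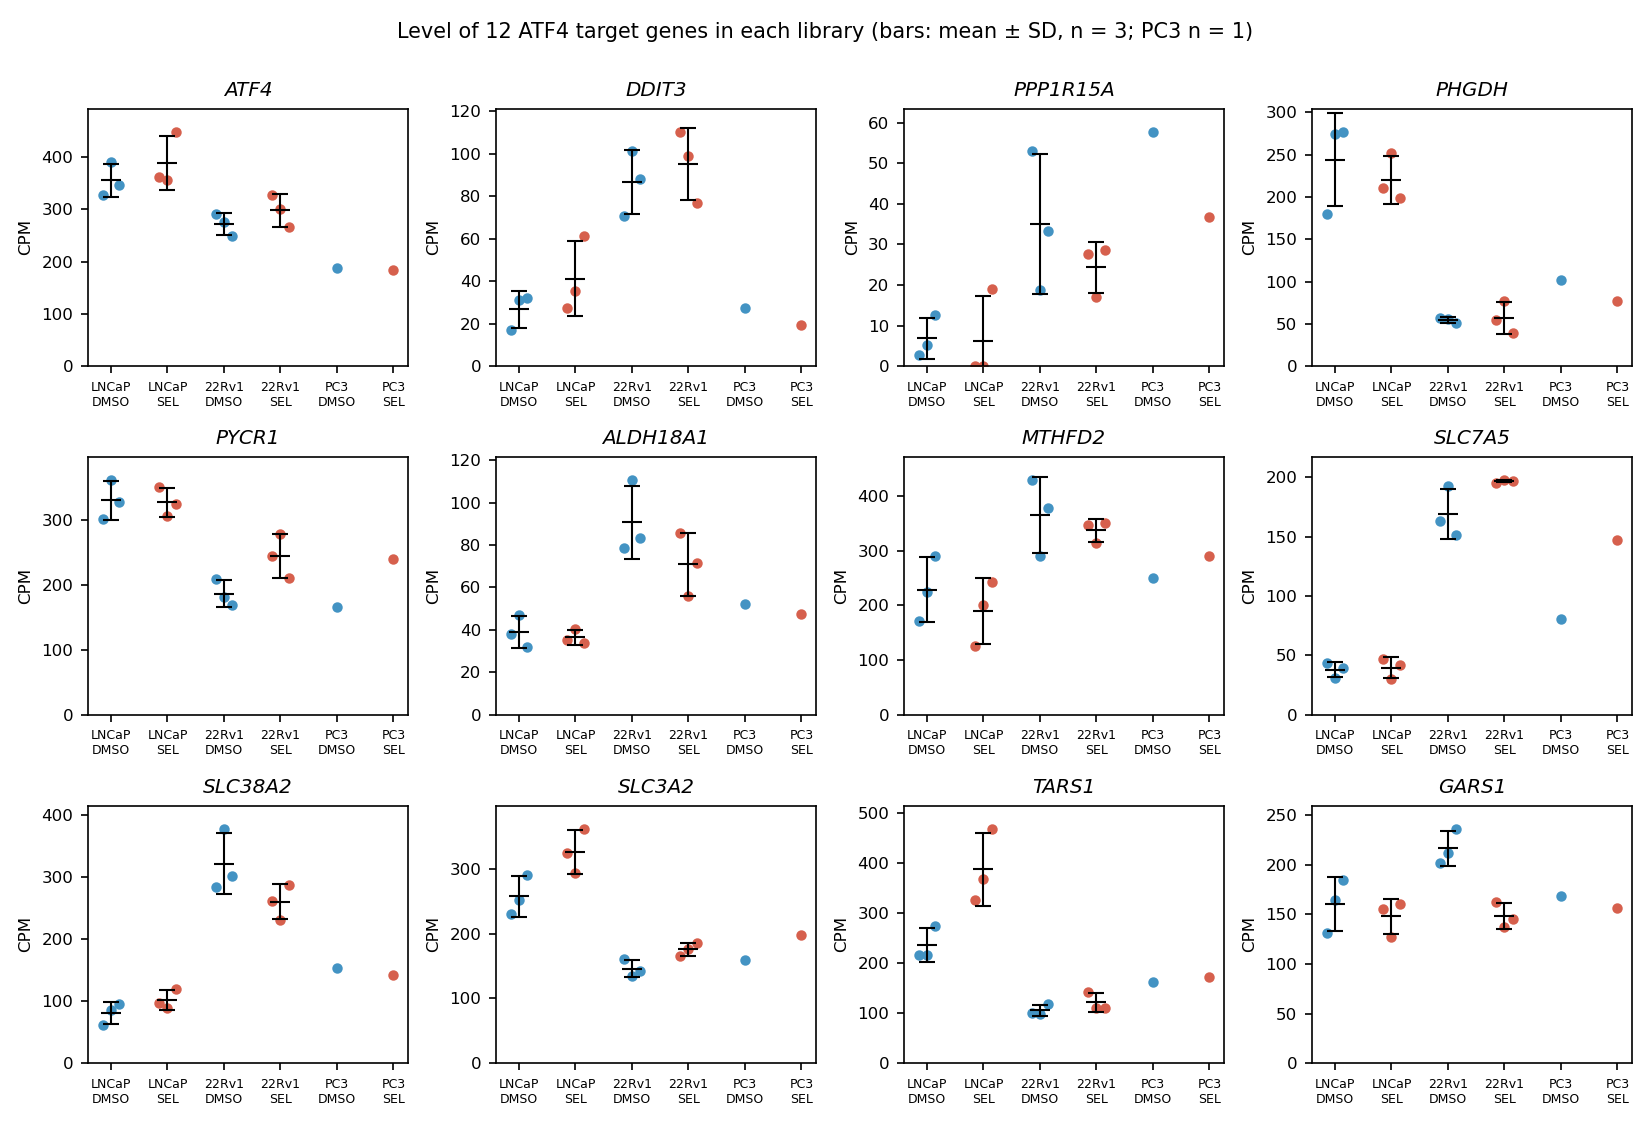
CPM (linear axes from 0) of 12 ATF4 target genes in every library, by line and treatment (blue DMSO, red SEL120-34A), with black bars for mean ± SD of 3 libraries; PC3 has 1 library per arm and no bar. SLC7A5, SLC38A2 and DDIT3 are higher in 22Rv1, PHGDH and TARS1 in LNCaP, and the TARS1 points of treated LNCaP lie above its controls.

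The second comparison asked what 3 days of SEL120-34A did to these genes in LNCaP. Of the 31 tested genes, 1 rose, TARS1, and none was called lower. Over all tested genes 2.77% were called, 1.99% higher and 0.776% lower. The split of all calls was 141 higher and 55 lower, and 99 and 90 with library totals. TARS1 was counted at 217, 217 and 275 CPM with DMSO and 328, 369 and 469 CPM with SEL120-34A from raw counts of 154, 83 and 197 with DMSO and of 84, 136 and 222 with SEL120-34A. Every treated library lay above every control, and the mean went from 237 ± 33.7 to 388 ± 72.7 CPM (SD, n = 3), a 1.69-fold rise (log2 0.75 ± 0.15 SE, adjusted p = 0.00159). The call was lost with all libraries thinned to the smallest total (log2 0.57, adjusted p = 0.0847) and with limma-trend (log2 0.70, adjusted p = 0.0847), and it held without any 1 library.

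For the other 30 genes the changes ran from -0.52 to 0.77, with adjusted p of 0.193 or more, and for 24 of them the 95% interval lay within a 2-fold change either way. An unadjusted p under 0.05 was reached by 7 of the 31, TARS1 included, and by 956 of the 7086 genes. The median was 0.05 with 21 of 31 positive, against 0.00 and 50.1% over all tested genes; with library totals the median of all genes moved to -0.08 and 15 of 31 were positive. ATF4 was at 328, 390.1 and 347 CPM with DMSO and 363, 355 and 448 CPM with SEL120-34A, which overlapped (log2 0.18, 95% interval -0.10 to 0.46, adjusted p = 0.618). DDIT3 was at 16.9, 31.4 and 32.2 CPM and 27.3, 35.2 and 61.2 CPM, with overlapping groups and 1 treated library well above the rest (log2 0.77, 95% interval 0.11 to 1.43, adjusted p = 0.252).

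Ranges did not overlap for 5 genes higher and 4 lower in treated LNCaP, where 8.76% and 10.7% of all tested genes did the same. Besides TARS1, the higher genes were SLC3A2, WARS1, MARS1 and SESN2, a leucine sensor that restrains mTORC1, and the lower ones were PSAT1, IARS1, YARS1 and XPOT, which exports tRNA from the nucleus. SLC3A2 came nearest to the threshold, at 229.6, 251 and 291 CPM with DMSO and 324, 293 and 361 CPM with SEL120-34A (log2 0.37 ± 0.14 SE, adjusted p = 0.193). Synthetases thus stood on both sides, with 8 of the 13 genes of tRNA charging and export positive and a median of 0.05, and 5 positive with library totals.

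**Figure D3:**
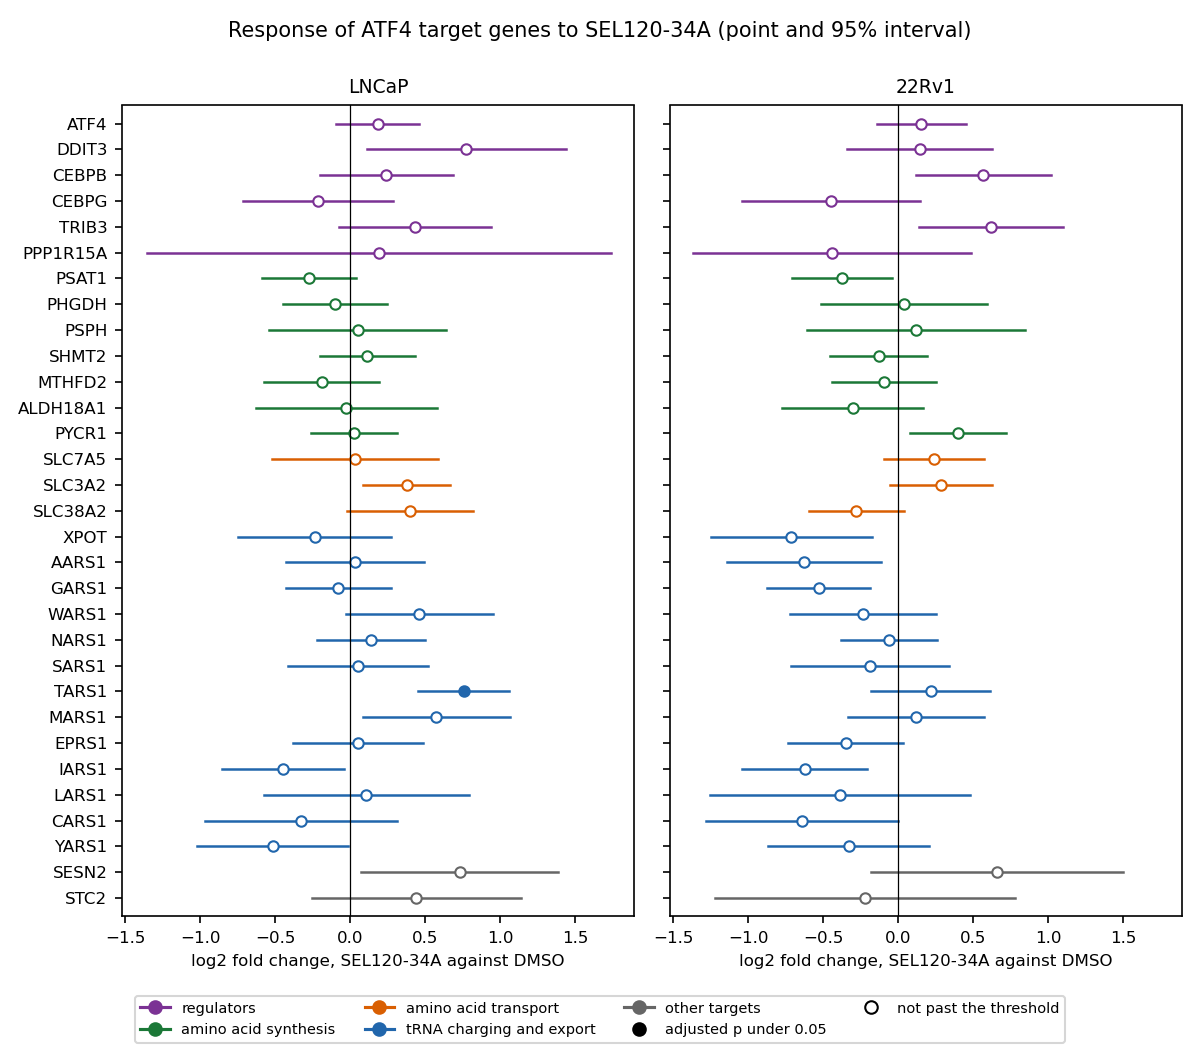
Log2 fold change with SEL120-34A against DMSO (x axis) for 31 tested ATF4 target genes in LNCaP (left) and 22Rv1 (right), 3 libraries per arm, with 95% intervals as lines and colours for the role of the gene. Of the 62 points only TARS1 in LNCaP is filled (adjusted p under 0.05), and most tRNA charging points of 22Rv1 lie left of 0.

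In 22Rv1 none of the 31 genes passed by edgeR's test, where 5.7% of all tested genes did, 4.15% higher and 1.55% lower. At an unadjusted p under 0.05 there were 8 of the 31, and 1351 of the 7086 genes. The DESeq2 Wald test and limma-trend also called none of the 31. Changes ran from -0.71 to 0.66, and for 20 of the 31 the 95% interval lay within 2-fold. The median was -0.19 with 12 of 31 positive, against 0.00 and 50.3% of all tested genes. With library totals 2 genes were called lower and the median of all genes moved to -0.14, with calls over all genes at 144 higher and 231 lower against 294 and 110 with TMM. The treated libraries of 22Rv1 were shallower than the controls, and their mitochondrial share ran higher with overlapping ranges. With libraries thinned to 1 total, 2 of 27 tested genes were called lower, against 97 of all 5198 tested. With mitochondrial genes removed, 1 of 31 was, against 128 of all 7132.

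ATF4 in 22Rv1 was at 291, 275 and 249 CPM with DMSO and 328, 300.4 and 265 CPM with SEL120-34A (log2 0.15, 95% interval -0.14 to 0.45, adjusted p = 0.633). DDIT3 was at 70.7, 101 and 88.3 CPM and 110.2, 98.7 and 77.0 CPM (log2 0.14, 95% interval -0.34 to 0.62), and with library totals its sign turned (log2 -0.01, adjusted p = 0.990). Both genes overlapped between the arms. CEBPB and TRIB3 were higher in all treated libraries than in any control, at 67.1 ± 2.21 against 98.5 ± 18.2 CPM and at 59.6 ± 2.10 against 92.4 ± 18.0 CPM (SD, n = 3). Neither passed (adjusted p = 0.131 and 0.126). PYCR1, SLC7A5 and SLC3A2 were the other 3 genes whose treated range lay above the control range, and PSAT1, AARS1, GARS1 and IARS1 were the 4 whose range lay below it, against 12.4% and 10.5% of all tested genes.

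Among the roles of the 36 genes, tRNA charging and export was the most one-sided in 22Rv1. Of 13, 11 had a negative change, with a median of -0.35, against 0.00 over all tested genes, and none passed the test. Related lists outside the 36 genes were mixed. Negative were 7 of 9 mitochondrial synthetases (median -0.41) and 11 of 14 genes of the eIF2 kinases, eIF2 and eIF2B (median -0.285). Other cytosolic synthetases and scaffold proteins had 6 of 11 negative (median -0.05). One-carbon and amino acid enzymes had 9 of 19 (median 0.01), and amino acid transporters 4 of 6 (median -0.099). A list of further ATF4 targets leaned the other way, with 12 of 18 positive (median 0.25). Over 23 alternatives the median of tRNA charging and export lay between -0.50 and -0.18, with 9 to 12 of 11 to 13 genes negative. Summed over the 13 genes, the level was 1268, 1449 and 1486 CPM in the DMSO libraries and 1152, 1056 and 1212 CPM in the SEL120-34A libraries, so that every treated library lay below every control. In LNCaP the sums were 1145, 1246 and 1324 CPM with DMSO and 1255, 1301 and 1485 CPM with SEL120-34A, and they overlapped. The genes of the group share libraries and are not independent, so the count is given without a test.

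In 22Rv1, 4 of these genes, named after their values were seen, had an unadjusted p under 0.05. GARS1 was at 202, 212 and 236 CPM with DMSO and 163, 137 and 145 CPM with SEL120-34A (log2 -0.53 ± 0.17 SE, adjusted p = 0.0559). IARS1, for isoleucine, was at 102, 159 and 123 CPM and 79.9, 68.7 and 94.1 CPM (log2 -0.62 ± 0.21 SE, adjusted p = 0.0631). In both, all treated libraries lay below all controls. XPOT was at 49.1, 103 and 90.6 CPM and 41.3, 42.9 and 62.8 CPM, with 1 low control in the treated range (log2 -0.71, adjusted p = 0.112). AARS1, for alanine, was at 78.5, 71.1 and 69.2 CPM and 52.4, 47.2 and 39.9 CPM with no overlap (log2 -0.63, adjusted p = 0.149). GARS1 and IARS1 passed with library totals, with at least 10 counts in every library and with thinned libraries, and without 22Rv1 DMSO replicate 1 the calls were IARS1 and XPOT (adjusted p = 0.0307 and 0.0209). GARS1, IARS1 and AARS1 hold the composite element in the windows searched, as do TARS1, NARS1, MARS1 and CARS1, of which only TARS1 passed in either treatment comparison.

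**Figure D4:**
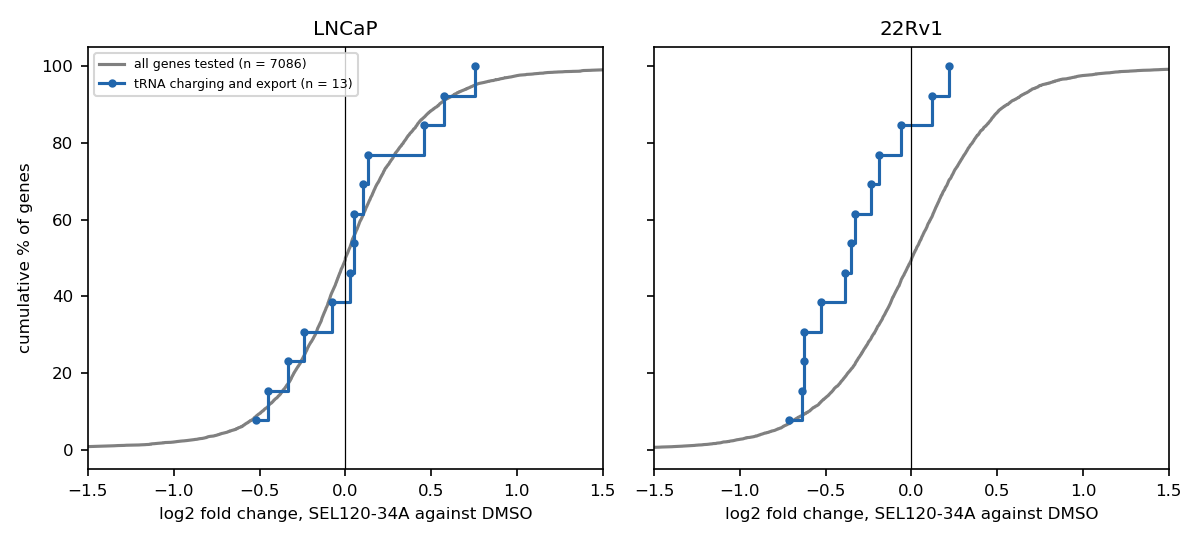
Cumulative percentage (y axis) of log2 fold changes with SEL120-34A (x axis, drawn from -1.5 to 1.5) for the 13 genes of tRNA charging and export (blue steps) and all 7086 tested genes (grey), in LNCaP (left) and 22Rv1 (right). The medians of the group are 0.05 in LNCaP and -0.35 in 22Rv1, against 0.00 for all genes in both lines.

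The difference between the lines in the response to SEL120-34A was tested as an interaction. None of the 31 genes passed by edgeR's test, where 0.734% of all tested genes did, and 3 had an unadjusted p under 0.05, namely SLC38A2, WARS1 and TARS1, as did 811 of the 7086 genes. The DESeq2 Wald test and limma-trend called none of the 31. TARS1 changed by 0.75 in LNCaP and 0.22 in 22Rv1, a difference of 0.54 (95% interval 0.04 to 1.03, adjusted p = 0.394), so its rise in LNCaP was not shown to differ between lines. SLC38A2 had the smallest adjusted p, with 0.40 in LNCaP and -0.28 in 22Rv1 (difference 0.67, adjusted p = 0.299). For WARS1 the values were 0.46 and -0.23 (difference 0.69, adjusted p = 0.431). Of the 13 genes of tRNA charging and export, 12 had the higher change in LNCaP, all but YARS1, with a median difference of 0.45 against -0.02 over all tested genes. For 16 of the 31 genes the interval of the difference lay within 2-fold.

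PC3 had 1 library per arm, so its values have no replicate check and no test. Of the 36 genes, 31 had at least 20 counts in both libraries together, a set that holds SLC7A11 and leaves out SESN2, unlike the 31 tested above. None of these passed a 2-fold change, whereas 2.24% of the 8205 genes at that count were over 2-fold higher and 3.23% over 2-fold lower. SESN2 had 4 counts with DMSO and 7 with SEL120-34A (4.35 and 12.3 CPM), with a 95% interval of the log2 ratio from -0.48 to 3.7. With at least 10 counts in each library the balance over all genes turned, to 147 higher and 52 lower of 7089, and still none of the 31 passed. Log2 ratios ran from -0.63 to 0.96, with 17 of 31 positive and a median of 0.06. ATF4 had 173 and 105 counts with DMSO and SEL120-34A, a log2 ratio of -0.03 (95% interval -0.40 to 0.33). TARS1 had 149 and 99 counts, a ratio of 0.10 (95% interval -0.28 to 0.47). The intervals cover counting error only, are exact only if each count is a separate molecule, and are otherwise too narrow. The ratios farthest from 0 were those of LARS1, for leucine, at 0.96 (95% interval 0.13 to 1.80), SLC7A5 at 0.87 (95% interval 0.40 to 1.34), STC2, a secreted glycoprotein, at 0.75 (95% interval -0.14 to 1.64), and PPP1R15A at -0.63 (95% interval -1.45 to 0.11). PC3 stood between the other lines for SLC7A5, at 80.6 CPM with DMSO, and for SLC38A2, at 154 CPM, and below both for ATF4, at 188 CPM.

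**Figure D5:**
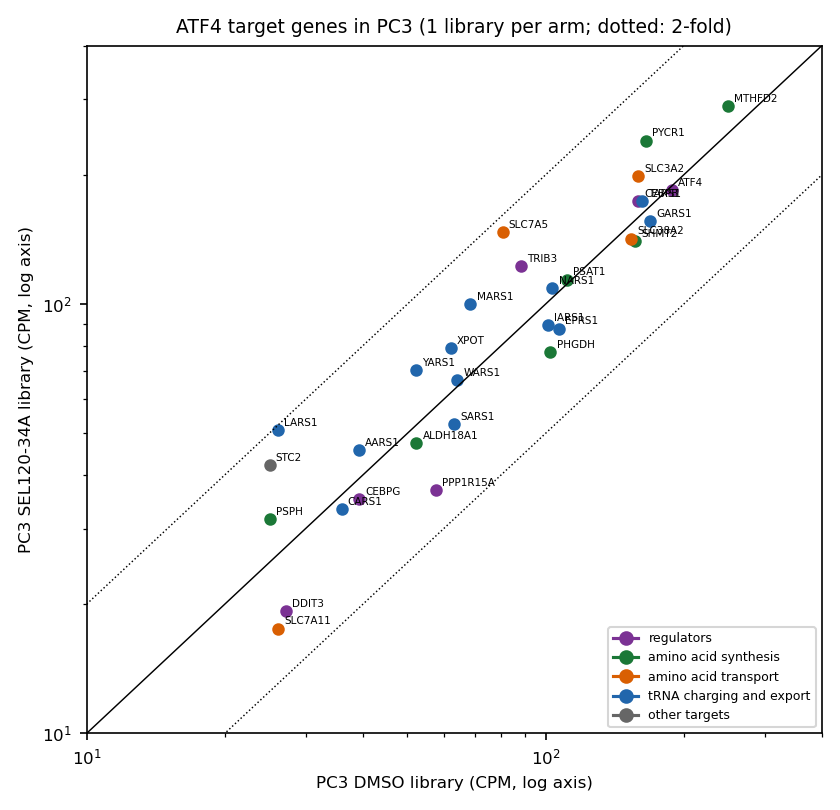
CPM of the 31 ATF4 target genes with at least 20 counts over both PC3 libraries, in the SEL120-34A library (y axis, log scale) against the DMSO library (x axis, log scale). There is 1 library per arm, with equality as a solid line and 2-fold changes dotted. The set holds SLC7A11 and leaves out SESN2. All points lie between the dotted lines, with LARS1 and SLC7A5 nearest the upper one.

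Of the 5 untested genes, SLC7A11 reached 35.0 CPM in LNCaP with DMSO and 26.1 CPM in PC3 with DMSO, and the others were low throughout. NUPR1, a small stress-induced chromatin protein, had at most 16.8 CPM, in 22Rv1 with DMSO, and CHAC1, which degrades glutathione, and VLDLR, a lipoprotein receptor, had 23 and 18 counts over all 14 libraries. Without the filter none of the 5 was called in either treatment comparison. ASNS, asparagine synthetase and a textbook ATF4 target, had 3 counts in all 14 libraries. In GENCODE release 44 its exons lie almost wholly (99.5% of the bases of its canonical transcript, and 97.8% of the last 500) under a second gene on the same strand, the long noncoding RNA ENSG00000284707, which had 0 counts. The part of this overlap in the low count of ASNS was not tested.

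Other genes of the pathway, taken from lists written for this purpose with earlier results of these data known, held few calls. Among 17 genes of the eIF2 kinases, eIF2 and eIF2B, 14 were tested. None was called in LNCaP, and 1 was lower in 22Rv1, the heme-regulated kinase EIF2AK1, at 161, 129 and 123 CPM with DMSO and 90.9, 60.1 and 88.4 CPM with SEL120-34A (log2 -0.72 ± 0.21 SE, adjusted p = 0.0292). The ranges did not overlap, and the call was lost without 22Rv1 DMSO replicate 1 or without any 1 of the treated 22Rv1 libraries (adjusted p from 0.0577 to 0.195) and by the DESeq2 Wald test and limma-trend (0.0525 and 0.0716). Of 24 further ATF4 targets, 18 were tested. In LNCaP 14 of the 18 were positive (median 0.36), and 7 had an unadjusted p under 0.05, against 956 of 7086 genes. In 22Rv1 12 were positive (median 0.25), and 6 had such a p, against 1351 of 7086 genes. Of all tested genes, 1.99% were called higher in LNCaP and 4.15% in 22Rv1. Of the 18 targets, 2 were called higher in each line by edgeR, with none lower. In LNCaP these were CDKN1A, a cyclin-dependent kinase inhibitor, at 155, 113 and 88.1 CPM with DMSO and 199, 249 and 184 CPM with SEL120-34A (adjusted p = 0.00801), and GDF15, a secreted stress cytokine. The call of CDKN1A did not hold by limma-trend (adjusted p = 0.236) or when LNCaP DMSO replicate 3 (0.139) or treated replicate 2 (0.139) was left out.

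In 22Rv1 they were GDF15 again and DDIT4, or REDD1, an mTORC1 inhibitor, which went from 23.6, 28.1 and 22.7 CPM to 99.2, 129 and 79.9 CPM, a 4.09-fold rise (log2 2.03 ± 0.32 SE, adjusted p = 2.22e-05). GDF15 was at 86.4, 95.5 and 76.3 CPM with DMSO and 325, 678 and 259.6 CPM with SEL120-34A in 22Rv1 (log2 2.26, adjusted p = 2.51e-07) and at 476, 689 and 1232 CPM and 1439, 1409.5 and 1466 CPM in LNCaP (log2 0.87, adjusted p = 0.0103). No range overlapped, although 1 LNCaP control stood close to the treated libraries, and in LNCaP the gene no longer passed when DMSO replicate 1 or 2 was left out (adjusted p = 0.114 and 0.0586), by the DESeq2 Wald test (0.361) or by limma-trend (0.298). GDF15, DDIT4 and CDKN1A are also targets of factors other than ATF4, among them p53. None of 19 tested one-carbon and amino acid enzymes, of 11 other cytosolic synthetases and scaffold proteins, or of 9 tested mitochondrial synthetases was called by edgeR in either line; at an unadjusted p under 0.05 there were 1, 1 and 0 in LNCaP and 4, 2 and 2 in 22Rv1. Of 6 tested amino acid transporters outside the 36 genes, the taurine carrier SLC6A6 was lower in 22Rv1, at 62.8, 63.6 and 22.7 CPM with DMSO and 22.0, 12.9 and 17.1 CPM with SEL120-34A (ranges barely apart, log2 -1.36, adjusted p = 0.0423). SLC6A6 passed the filter on low counts through its 22Rv1 DMSO libraries alone, the group where it was high, so the filter favoured this direction. It lost the call without any 1 of 5 of the 6 22Rv1 libraries, all but DMSO replicate 3 (adjusted p from 0.0905 to 0.177) and by limma-trend (0.126).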

How the data were processed

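RNA of the 14 libraries was sequenced from 3′ ends with BRB-seq, in which samples are barcoded at reverse transcription and pooled. The authors aligned and counted reads with STARsolo on GRCh38.p13 with GENCODE release 43. They deposited a table of raw counts of 62703 genes. The PC3 intervals and the floors cover counting error only and take each count as a separate molecule. Whether molecular identifiers were collapsed is not given in the sources used here. If they were not, the PC3 intervals are too narrow even for counting error. Intervals for LNCaP and 22Rv1 come from the fit and include the spread between replicates. A second file of the authors holds log2 CPM of 9638 genes, which edgeR gave from the counts with TMM factors and a prior count of 2 to within 5e-14; they served 1 alternative. Every column was mapped to a sample by its label.

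Tests used edgeR 4.0.16 (R 4.3.3) on the counts. The 12 libraries of LNCaP and 22Rv1 were fitted jointly with 4 group means, TMM factors, the filterByExpr filter and the quasi-likelihood F-test (8 residual degrees of freedom, common biological coefficient of variation 11.1%). Levels are CPM with TMM factors over all 14 libraries. PC3 was described by ratios. Total counts of 246063 to 909176 per library put the floor of 3 counts at 3.27 to 12.9 CPM. Replicates differed by more than counting error (chi-square per degree of freedom 1.43 to 3.02). Same-numbered libraries of the 2 arms deviated together only weakly (r from -0.0489 to 0.107, against -0.147 to 0.0617 for different numbers). The main fit used no pairing, and the replicate number served as a block in 1 alternative.

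The genes, the lists and their roles were chosen with earlier results of these data known. Values in every library are given for ATF4, DDIT3 and each gene called in at least 1 of 4 comparisons, and, of each other list, for at most 3 called genes with the smallest adjusted p. Gene positions came from GENCODE release 44, which held all 36 genes, and promoters from RefSeq (GRCh38.p14). Alternatives were the replicate block, DESeq2 size factors, library totals, no filter, at least 10 counts, thinned libraries, PC3 added, each line by itself, removal of mitochondrial genes, the DESeq2 1.42.0 Wald test, limma-trend (limma 3.58.1) and each library left out. The model was tested on simulated counts.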

Additional observations from a re-analysis of the deposited data

Results flagged for a closer look

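Among the further ATF4 targets, 2 genes responded to SEL120-34A by different amounts in LNCaP and 22Rv1 in the test of the difference itself. DDIT4 changed by 0.48 in LNCaP and 2.03 in 22Rv1 on the log2 scale, a difference of -1.55 ± 0.40 SE (edgeR, adjusted p = 0.0494), and the difference kept its direction in all 22 alternatives and stayed past the threshold in 8 of them (adjusted p from 0.00315 to 0.224). Its DMSO levels were 91.6, 141 and 64.3 CPM in LNCaP and 23.6, 28.1 and 22.7 CPM in 22Rv1. GDF15 changed by 0.87 and 2.26, a difference of -1.39 ± 0.34 SE (adjusted p = 0.0399), which stayed past the threshold in 10 of 22 alternatives (adjusted p from 1.10e-06 to 0.404). When LNCaP DMSO replicate 3 was left out the difference of GDF15 was -0.88 (adjusted p = 0.221), and without 22Rv1 treated replicate 2 it was -0.94 (adjusted p = 0.246). Both genes started from a lower DMSO level in 22Rv1 than in LNCaP.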

How the results depend on the processing

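The numbers of the 31 genes called were recomputed under each alternative. The 1 gene called higher in LNCaP became 0 with thinned libraries and 0 with limma-trend, and stayed at 1 without each library in turn. The 0 genes called lower in 22Rv1 became 2 of 31 with library totals, where 231 of all 7086 tested genes were lower. They became 2 of 22 with at least 10 counts in every library (136 of all 2870) and 2 of 27 with thinned libraries (97 of 5198). With each line alone 1 of 28 was lower (142 of 6003), and without mitochondrial genes 1 of 31 (128 of 7132). When each library was left out the range was 0 to 2, against 33 to 149 over all tested genes. Leaving out DMSO replicate 1, DMSO replicate 3 or treated replicate 3 of LNCaP added the call of GARS1 (adjusted p = 0.0430, 0.0497 and 0.0364). The 11 genes lower in LNCaP than 22Rv1 with DMSO became 7 with thinned libraries, where 27 were tested. When each library was left out, they ranged from 8 to 11, and those higher from 5 to 8. The change of DDIT3 in 22Rv1 reversed to -0.0099 with library totals. The number of genes with TGATGNAA fell from 11 to 6 when only the 250 bases before the start were searched. For the limma-trend and thinned results, the cause was not tested.

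Whether replicate numbers pair the samples is not given by the labels. With the replicate number as a block in edgeR, 1 gene was called higher in LNCaP and none in 22Rv1 or for the difference between lines. Between the DMSO libraries 7 were higher and 11 lower, STC2 being added (adjusted p = 0.0493). STC2 passed the filter on low counts through its LNCaP libraries and did not pass it with 22Rv1 fitted alone, so the filter favoured this direction. Over all tested genes the block raised the calls from 196 to 240 in LNCaP and from 404 to 450 in 22Rv1. Those of the difference rose from 52 to 68, and those between the DMSO libraries from 3473 to 3507. Of the 17 calls between the DMSO libraries, 12 held in every alternative run for them and 5 were lost in at least 1 (ATF4, PSPH, MARS1, GARS1 and WARS1). Of 7086 tested genes, 196 were called in LNCaP. These became 122 of 2870 with at least 10 counts, 96 of 5198 thinned, 101 of 7086 by DESeq2 and 41 of 9638 by limma-trend (87 to 239 calls with each library left out). The 404 calls in 22Rv1 became 260 of 21395 without filter, 255 of 7086 by DESeq2 and 201 of 9638 by limma-trend (158 to 446). The 52 calls of the difference became 29 of 2870 with at least 10 counts, 29 of 5198 thinned and 5 of 9638 by limma-trend (24 to 57). The 3473 between the DMSO libraries became 1503 of 2870 with at least 10 counts and 2048 of 5198 thinned. With at least 10 counts the share of tested genes called was thus higher than in the main fit, and with thinned libraries it was lower. Depth limits the low genes: the interval of the change of PPP1R15A in LNCaP, with 9 counts or fewer in each DMSO library, spans -1.35 to 1.74. Its treated libraries held 0, 0 and 9 counts, and over 19 alternatives the change ran from -4.83 to 1.104 without passing, so that its direction is not determined. Likewise, the 5 untested genes could hold changes that were not detectable at this depth.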
